A study of Rattus norvegicus with 56 samples.

Results

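The miR-15, miR-16, miR-195 and miR-497 family is a group of microRNAs that read the same target letters. Its members here were chosen by name in the deposited count tables: miR-15b-5p, miR-16-5p, miR-195-5p, miR-497-5p, miR-322-5p and the opposite arm miR-497-3p. These are 6 of the 682 microRNAs listed in the series. All 6 were listed for myocardium, and 5 were listed for amniotic fluid and for maternal serum, where miR-497-3p was not listed.

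The data were small RNA sequencing counts from 56 Sprague-Dawley rat samples taken on D19. DMO dams were gavaged with 6 doses of dimethadione (DMO), a compound that induces heart defects in the fetus. The doses began on D8, were 12 h apart and were each 5 ml/kg at 60 mg/ml. NC dams received distilled water. The VSD group held DMO-exposed fetuses with a ventricular septal defect and normally connected great vessels, and the non-VSD group held DMO-exposed fetuses with an intact septum. Each group had 7 samples in each of its tissues: myocardium and amniotic fluid were sampled in all 3 groups, and maternal serum in NC and VSD. In myocardium and amniotic fluid, the VSD and non-VSD groups thus shared the exposure and differed in the septum. Serum came from the dams and had no non-VSD group. There, DMO exposure and the septal defect cannot be told apart. The dam and litter of each sample are not given in the sources used here, so p-values measure the spread between these samples. Heart RNA was extracted from wax-embedded myocardium, and amniotic fluid and serum were cell-depleted supernatants. Tissues were prepared with different kits, so levels in different tissues are set side by side without a test.

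A mature microRNA guides a silencing complex to messenger RNAs that match its seed, bases 2 to 8 from the 5′ end. The miR-15 family is known for slowing the cell cycle and lowering the survival protein BCL2, with cyclins and checkpoint kinases among its targets. In the mouse heart, miR-195 is known for its part in the arrest of cardiomyocyte division around birth. miR-16 is also one of the abundant microRNAs of red blood cells and plasma.

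The mature sequences show what the members share, and they were taken from RefSeq (GRCr8 build), which held all 6. They are written 5′ to 3′ with the seed in capitals, and miR-503-5p, the cluster partner of miR-322-5p, is added for its related seed.
miR-15b-5p: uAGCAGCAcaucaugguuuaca
miR-16-5p: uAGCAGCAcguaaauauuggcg
miR-195-5p: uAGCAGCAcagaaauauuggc
miR-497-5p: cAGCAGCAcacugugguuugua
miR-322-5p: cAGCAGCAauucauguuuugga
miR-497-3p: cCAAACCAcacugugguguuaga
miR-503-5p: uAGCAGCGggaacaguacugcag

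The 5 guide members carried 1 seed, and they were the only 5 of the 693 mature microRNAs in that table that did. miR-15a-5p, which is not among the members, was missing from that table, so its seed was not compared. miR-497-3p, which comes from the other side of the miR-497 hairpin, had a seed of its own. Outside the seed the guides diverged. miR-16-5p and miR-195-5p were the closest pair, with 19 identical bases of 21 compared from the 5′ end and 2 that differed. miR-16-5p and miR-497-5p had 11 identical bases of 22. The mismatch setting of the authors' read assignment is not given in the sources used here. Reads of the abundant miR-16-5p could therefore have been counted as miR-195-5p, and how many was not checked. In NC serum, miR-16-5p had 484083 counts and miR-195-5p 132, so a very small share would weigh there. Values of miR-195-5p in the fluids carry this limit.

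The members lie in 3 clusters on the GRCr8 build. The build behind the counts is not given in the sources used here. For each mature name only the first position listed was kept, so a further locus of miR-16-5p would not appear. miR-15b-5p (chr2:155555197-155555218, + strand) and miR-16-5p (chr2:155555343-155555364, + strand) start 146 bases apart, within the span of Smc4, which encodes a condensin subunit. miR-497-5p (chr10:55450172-55450193, + strand) and miR-195-5p (chr10:55450509-55450529, + strand) start 337 bases apart, and miR-497-3p (chr10:55450211-55450233, + strand) shares the miR-497 hairpin. miR-322-5p (chrX:137726198-137726219, − strand), the rodent counterpart of human miR-424, lies within the span of a long noncoding RNA gene, and miR-503-5p starts 299 bases from it.

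Depth set how far each member could be followed. A library held from 1694811 to 9371130 counts in myocardium, from 78188 to 331787 in amniotic fluid and from 147609 to 581350 in serum. A count of 0 therefore allows up to 0.32 to 1.77 CPM (counts scaled to a common library total) in myocardium, 9.04 to 38.4 in amniotic fluid and 5.16 to 20.3 in serum, taking 3 counts as the limit and counting error only. In the myocardium libraries, 6 of 6 microRNAs of heart and skeletal muscle were detected, as they were in both fluids. Their summed level had an NC median of 31460 CPM of the library in myocardium, 162 in amniotic fluid and 8758 in serum. Replicate 2 of the NC myocardium, which had the highest miR-195-5p and miR-497-5p of its group, stood apart in its markers: it was the highest NC library for 8 of 8 epithelial microRNAs and the lowest for 6 of 6 muscle and 4 of 4 red blood cell microRNAs. Replicate 1 of the VSD myocardium, the highest of its group for both members, was likewise the highest for 6 of 8 epithelial microRNAs and the lowest for 4 of 6 muscle and 3 of 4 red blood cell microRNAs.

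miR-16-5p made up most of the family in every tissue, and its lead was far greater in the fluids. It held a median of 57.0% of the counts of the 5 guides in myocardium (47.7% to 74.8% over 21 samples), 97.1% in amniotic fluid (93.8% to 98.6%) and 99.1% in serum (98.9% to 99.3% over 14 samples). Together the 5 guides took a median of 0.351% of all counts in myocardium, 5.52% in amniotic fluid and 12.7% in serum. miR-16-5p ranked between 41 and 73 among the microRNAs of a myocardium library, and between 1 and 3 in serum.

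miR-322-5p was the other abundant member in myocardium. It held a median of 33.5% of the guides' counts there (15.3% to 44.4%), against 2.37% in amniotic fluid and 0.257% in serum. miR-15b-5p held 7.30% in myocardium, 0.744% in amniotic fluid and 0.529% in serum. miR-195-5p and miR-497-5p were the rarest of the 5 guides, with 0.957% and 0.530% in myocardium. These shares leave out miR-15a-5p, which had a median of 57.2 CPM in NC myocardium, against 18.9 for miR-195-5p. The order miR-16-5p, miR-322-5p, miR-15b-5p, miR-195-5p, miR-497-5p held for the medians in myocardium. In serum, miR-15b-5p stood above miR-322-5p, and the ranges of miR-195-5p and miR-497-5p overlapped.

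**Figure D1:**
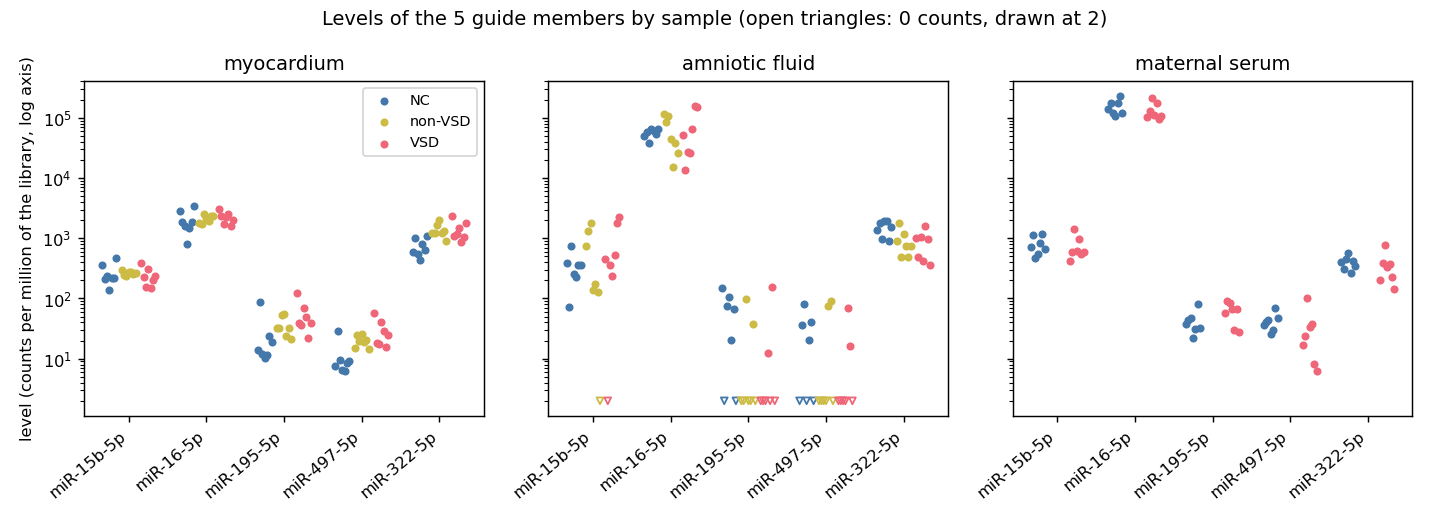
Level of each guide member in each sample, as CPM of the library on a log axis, by tissue and group. miR-16-5p sits between 95088 and 227375 CPM in serum and between 794 and 3459 CPM in myocardium; open triangles mark samples with 0 counts, most of them miR-195-5p and miR-497-5p in amniotic fluid.

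Partners of a cluster did not keep 1 ratio across tissues. There was a median of 0.127 miR-15b-5p counts for each miR-16-5p count in myocardium (0.0601 to 0.178), 0.00783 in amniotic fluid and 0.00534 in serum (0.00398 to 0.00666). The myocardium and serum ranges did not overlap. For miR-497-5p against miR-195-5p, the median was 0.551 in myocardium (0.331 to 0.811) and 0.925 in serum (0.137 to 1.43), with ranges that overlapped. Counts of a mature microRNA do not tell the locus it came from, so these are ratios of mature levels. Library kits differed between amniotic fluid and the other tissues, and their part in these ratios was not tested.

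Within a tissue, partners rose and fell together in some cases. Across the 21 myocardium samples, log2 CPM of miR-195-5p and miR-497-5p gave a Pearson r of 0.86 (permutation p = 1e-05, the smallest that 100000 permutations can give; adjusted p = 6e-05 over 18 tests) and a Spearman rho of 0.84 (permutation p = 1e-05, adjusted 6e-05). With group means removed r was 0.81, and without the 2 samples farthest from the median it was 0.80. Within the groups, r was 0.84 in NC, 0.52 in non-VSD and 0.93 in VSD.

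For miR-15b-5p and miR-16-5p in myocardium, r was 0.74 (permutation p = 0.00023, adjusted 0.000797) and rho was 0.66 (permutation p = 0.00125, adjusted 0.00281). Without the 2 farthest samples r was 0.75, but within the groups it was 0.95 in NC, −0.14 in non-VSD and 0.23 in VSD, so the relation was not seen within either DMO group. In serum the same pair gave r = 0.92 over 14 samples (permutation p = 1e-05, adjusted 6e-05) and rho = 0.85 (permutation p = 0.00031, adjusted 0.000797), with 0.93 in each group and 0.91 without the 2 farthest. In amniotic fluid r was 0.76 (permutation p = 0.00013, adjusted 0.000585) and rho was 0.72 (permutation p = 0.00029, adjusted 0.000797), with 0.71 without the 2 farthest, and r was −0.51 within NC, 0.74 within non-VSD and 0.91 within VSD.

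In serum, miR-195-5p and miR-497-5p gave r = 0.08 over 14 samples (permutation p = 0.783, adjusted 0.829) and rho = 0.03 (permutation p = 0.914, adjusted 0.914), with 0.89 within NC and 0.12 within VSD and 0.25 without the 2 farthest. These serum values rest on 244 and 190 counts in all, and the amniotic fluid pair on 98 and 58 counts (r = 0.18, permutation p = 0.419; rho = 0.22, permutation p = 0.333). For miR-322-5p and miR-503-5p, r was 0.45 in myocardium (permutation p = 0.0443, adjusted 0.0725), 0.45 in amniotic fluid (permutation p = 0.0378, adjusted 0.068) and 0.40 in serum (permutation p = 0.159, adjusted 0.218). The corresponding rho was 0.39 (permutation p = 0.079), 0.53 (permutation p = 0.0141, adjusted 0.0281) and 0.39 (permutation p = 0.169). Without the 2 farthest samples these r were 0.41, 0.32 and 0.11.

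**Figure D2:**
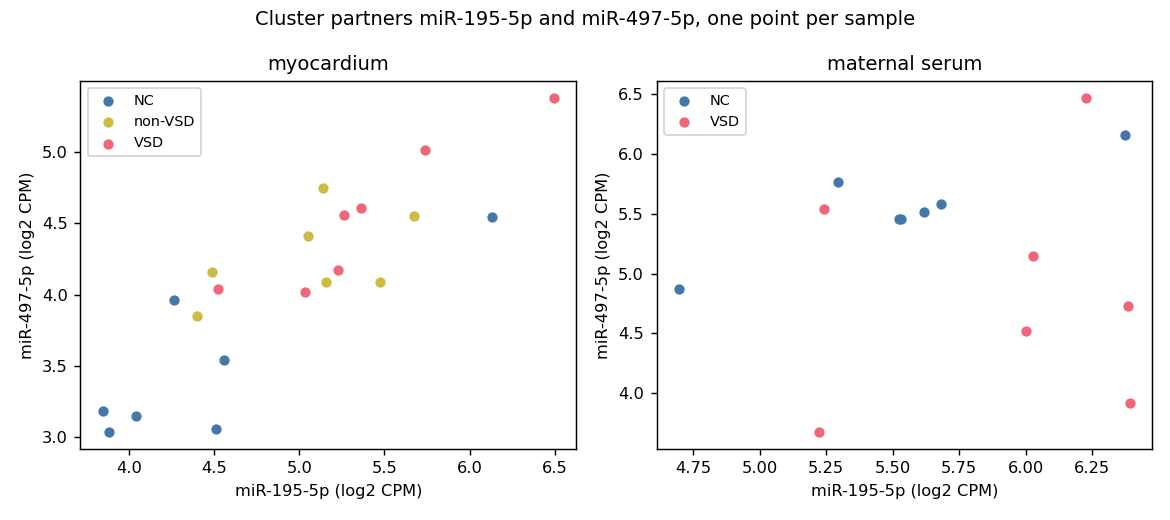
miR-497-5p against miR-195-5p, both as log2 CPM, with 1 point per sample, in myocardium and maternal serum. The myocardium points follow a line (r = 0.86) and the serum points do not (r = 0.08).

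The first question for the myocardium was which members differed between the VSD and NC groups. No member passed the adjusted threshold. The log2 fold changes of the cluster partners miR-497-5p (1.03) and miR-195-5p (0.79) and of miR-322-5p (0.50) were above 0, and those of miR-15b-5p (−0.63) and miR-16-5p (−0.30) were below 0. By edgeR's quasi-likelihood test, 0 of 5 tested members passed a Benjamini-Hochberg adjusted p under 0.05 (2 at an unadjusted p under 0.05; 1 by DESeq2 and 0 by limma), against 0.426% of the 469 microRNAs tested. At the study's DE-microRNA threshold (unadjusted p under 0.05 and a fold change reaching 2, or 0.5 for lower levels), 1 of 5 was called, miR-497-5p, against 6.82% of all tested. That count was 0 by limma, without any 1 of NC replicates 1, 4, 5, 6 and 7 and without any 1 of VSD replicates 1, 4 and 5, and it was 2 without NC replicate 2. The median log2 fold change was 0.50 over the members and −0.05 over all tested.

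miR-497-5p lay between 7.90 and 23.0 CPM in NC (median 8.77), between 14.1 and 26.5 in non-VSD (median 17.6) and between 15.9 and 41.4 in VSD (median 23.3), after TMM scaling, which assumes most microRNAs unchanged. Every sample of either DMO group, 7 of 7, was above the NC median, and 4 VSD samples were above every NC sample. NC and VSD overlapped only through NC replicate 2, since the next NC sample had 15.3 CPM. The log2 fold change in VSD was 1.03 ± 0.31 (SE, n = 7 and 7; edgeR adjusted p = 0.0873).

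Over fits that each lacked 1 library, the VSD log2 fold change of miR-497-5p ranged from 0.80 (edgeR adjusted p = 0.213, without VSD replicate 1) to 1.25 (edgeR adjusted p = 0.0163, without NC replicate 2). That of miR-195-5p ranged from 0.48 to 1.27 (edgeR adjusted p = 0.0163, without NC replicate 2), so 2 members passed without that library. With NC replicate 2 and VSD replicate 1 both left out, a choice made after the data had been seen, miR-497-5p was 1.09 ± 0.27 (edgeR adjusted p = 0.0344) and miR-195-5p 1.01 ± 0.24 (edgeR adjusted p = 0.0289).

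When a score of red blood cell microRNAs entered the fit, the difference of miR-497-5p was 0.61 ± 0.35 (edgeR adjusted p = 0.634) and that of miR-195-5p was 0.12 ± 0.36 (edgeR adjusted p = 0.917). In these libraries, 4 of 4 red blood cell microRNAs were detected in every group, and their summed level was 3266 to 73069 CPM of the library in NC, 3051 to 34882 in non-VSD and 4766 to 24223 in VSD; 4 of 4 had a log2 fold change below 0 in VSD and 4 of 4 reached the DE-microRNA threshold. The 8 epithelial microRNAs mark lung, gut or skin lining rather than heart muscle. They summed to 167 to 17532 CPM of the library in NC, 296 to 7238 in non-VSD and 1910 to 21156 in VSD. The medians of these sums were 1084, 1811 and 3385, and NC replicate 2 was the highest NC library for 8 of 8. The log2 fold change was above 0 for 8 of 8 in VSD. In non-VSD it was below 0 for 8 of 8, although the median sum was above that of NC. In each of these comparisons 0 of 8 had an unadjusted p under 0.05 by edgeR. In bulk samples, fewer cells of a type and less RNA per cell cannot be told apart. The 2 endothelial microRNAs summed to 10638 to 16523 CPM of the library in NC, 20135 to 29096 in non-VSD and 16153 to 30570 in VSD. Most of this sum was miR-126a-3p, with an NC median of 13636 CPM against 1466 for miR-126a-5p. The log2 fold change was above 0 for 2 of 2 in VSD. In non-VSD the 2 values were 0.77 and −0.03. Of the 6 muscle microRNAs, 5 had a log2 fold change below 0 in VSD (median −0.47; 0 of 6 at an unadjusted p under 0.05), and their sum was 5024 to 62416 CPM of the library in NC, 27846 to 44532 in non-VSD and 7527 to 44008 in VSD. Of the 4 white blood cell microRNAs, 3 had a log2 fold change below 0 in VSD. miR-142-3p (−1.81) and miR-142-5p (−2.55) reached the DE-microRNA threshold, and miR-150-5p (−0.14) and miR-223-3p (0.18) did not. The part of white blood cells and of epithelial, endothelial and muscle cells in the miR-497-5p difference was not tested.

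miR-195-5p lay between 14.1 and 69.7 CPM in NC (median 18.9), between 20.8 and 50.7 in non-VSD (median 34.9) and between 22.7 and 89.9 in VSD (median 38.1). In VSD, 7 of 7 samples were above the NC median. NC replicates 2 and 7 (69.7 and 23.2 CPM) lay above the lowest VSD sample. Its log2 fold change was 0.79 ± 0.39 (edgeR adjusted p = 0.266).

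miR-15b-5p lay between 171 and 589 CPM in NC (median 273) and between 128 and 276 in VSD (median 218), a log2 fold change of −0.63 ± 0.29 (edgeR adjusted p = 0.243). The groups overlapped, with 2 VSD samples below every NC sample. miR-16-5p lay between 1085 and 4315 CPM in NC and between 1531 and 2239 in VSD (log2 fold change −0.30 ± 0.27; edgeR adjusted p = 0.537), so the VSD range lay inside the NC range. With the red blood cell score in the fit these changes were 0.05 and 0.30, above 0. With library size in place of TMM, the change of the median microRNA moved by 0.39 on the log2 scale and that of miR-16-5p was 0.15, above 0.

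miR-322-5p lay between 602 and 1369 CPM in NC (median 815) and between 722 and 1728 in VSD (median 1084), with 6 of 7 VSD samples over the NC median. The log2 fold change was 0.50 ± 0.24 (edgeR adjusted p = 0.257). By library size it was 0.93, of which 0.39 is the shift of the median microRNA. miR-497-3p was at the edge of detection, with 0 counts in the 7 NC libraries, 5 in non-VSD and 10 in VSD. It reached the limit of 3 counts in 1 non-VSD and 1 VSD library and 4 counts in another VSD library, and it was not tested.

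**Figure D3:**
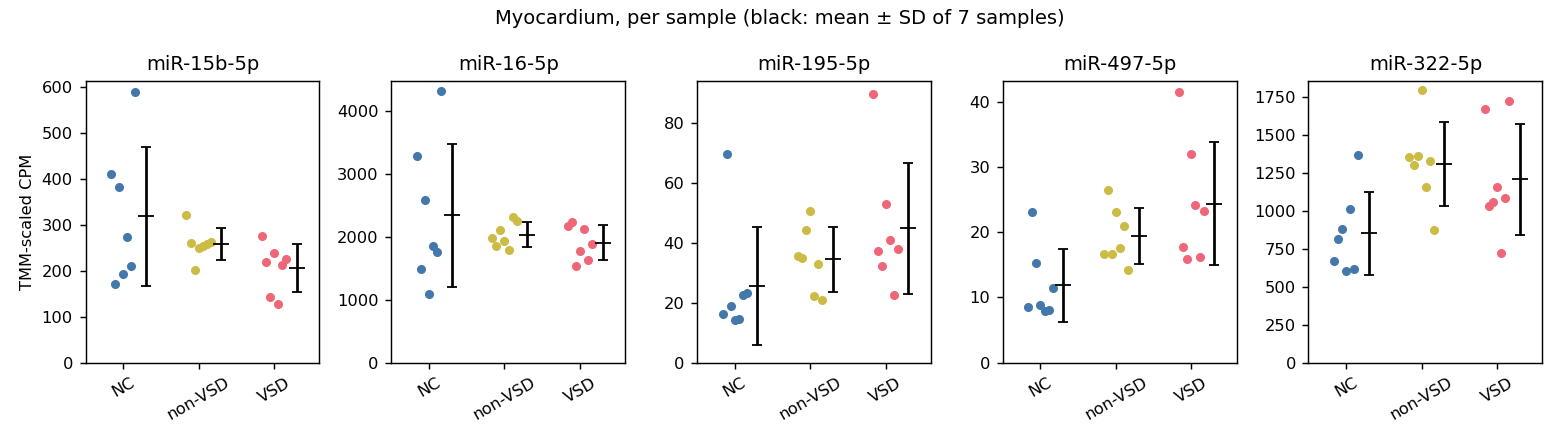
TMM-scaled CPM of the 5 guide members in each myocardium sample, with the mean ± SD of 7 samples in black. miR-497-5p has medians of 8.77 in NC, 17.6 in non-VSD and 23.3 in VSD, and NC replicate 2 is the high NC point of miR-195-5p at 69.7.

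The non-VSD group tells which differences accompanied DMO exposure with an intact septum. The log2 fold changes of miR-497-5p, miR-322-5p and miR-195-5p were above 0, and those of miR-15b-5p and miR-16-5p below 0, without any passing the adjusted threshold. By edgeR, 0 of 5 passed an adjusted p under 0.05 (2 at an unadjusted p under 0.05; 1 by DESeq2 and 0 by limma), against 0.219% of 456 tested, and 0 of 5 met the DE-microRNA threshold, against 4.17%. The median log2 fold change was 0.45 over the members and −0.07 over all tested. The same NC samples serve for both DMO groups, so these values are not independent of the VSD ones.

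miR-322-5p lay between 876 and 1798 CPM in non-VSD (median 1327), 7 of 7 above the NC median and 1 above every NC sample. The log2 fold change was 0.67 ± 0.21 (edgeR adjusted p = 0.118), and by DESeq2 it was 0.63 (adjusted p = 0.0324). For miR-497-5p it was 0.73 ± 0.28 (edgeR adjusted p = 0.165) and for miR-195-5p 0.45 ± 0.37 (edgeR adjusted p = 0.613). Without NC replicate 2 these were 1.002 and 0.96, both at an edgeR adjusted p of 0.0376, and over all libraries left out in turn they ranged from 0.63 and 0.31 upwards to those values. miR-15b-5p was −0.25 ± 0.25 and miR-16-5p −0.15 ± 0.25. With the red blood cell score in the fit they were 0.14 and 0.26. By library size, where the median microRNA moved by 0.21, miR-16-5p was 0.08.

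The VSD and non-VSD myocardium groups were compared to see what went with the septal defect itself. By edgeR, 0 of 5 members passed an adjusted p under 0.05 (0 at an unadjusted p under 0.05; 0 by DESeq2 and by limma), against 0% of 483 tested, and 0 of 5 met the DE-microRNA threshold, against 5.18%. The log2 fold change was 0.38 ± 0.35 for miR-195-5p, 0.34 ± 0.27 for miR-497-5p and −0.33 ± 0.25 for miR-15b-5p. Of the 6 muscle microRNAs, 6 were below 0 in this comparison (median −0.54). Of the 8 epithelial microRNAs, 8 were above 0 (median 1.61), 2 of them at an unadjusted p under 0.05 by edgeR. miR-16-5p (−0.09 ± 0.23) and miR-322-5p (−0.12 ± 0.22) lay nearer 0, and by library size, where the median microRNA moved by 0.15, they were 0.06 and 0.04. The unadjusted p ranged from 0.2 to 0.693, and all groups overlapped.

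Ratios between members of 1 library need no scaling. In myocardium, miR-322-5p per miR-16-5p had a median of 0.351 in NC (0.204 to 0.555), 0.648 in non-VSD (0.390 to 0.929) and 0.665 in VSD (0.339 to 0.920). The ratio was above every NC sample in 6 of 7 non-VSD and 5 of 7 VSD samples. On the log2 scale it differed by 0.72 in non-VSD (exact two-sided permutation p = 0.014) and by 0.67 in VSD (exact permutation p = 0.0297), each with an adjusted p of 0.225 over 28 ratio tests. With each library left out in turn, the unadjusted exact permutation p ranged from 0.00408 to 0.0303 in non-VSD and from 0.00874 to 0.0618 in VSD.

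miR-195-5p per miR-16-5p differed by 1.09 on the log2 scale in VSD myocardium, with 7 of 7 samples above the NC median (exact permutation p = 0.0379, adjusted 0.225), and by 0.66 in non-VSD (exact permutation p = 0.17, adjusted 0.432). With each library left out in turn, the VSD difference ranged from 0.91 (exact permutation p = 0.0746, without NC replicate 1) to 1.45 (exact permutation p = 0.000583, without NC replicate 2). The non-VSD difference ranged from 0.49 (exact permutation p = 0.315) to 1.03 (exact permutation p = 0.00816), without the same libraries. miR-15b-5p per miR-16-5p differed by −0.38 in VSD, 7 of 7 below the NC median (exact permutation p = 0.0402, adjusted 0.225; from 0.0216 to 0.088 with each library left out). The partners miR-497-5p and miR-195-5p kept a ratio that differed by 0.14 on the log2 scale in VSD (exact permutation p = 0.485) and 0.19 in non-VSD (exact permutation p = 0.424). Of the 28 ratios, 0 passed an adjusted p under 0.05 by the exact permutation test (5 at an unadjusted p under 0.05).

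**Figure D4:**
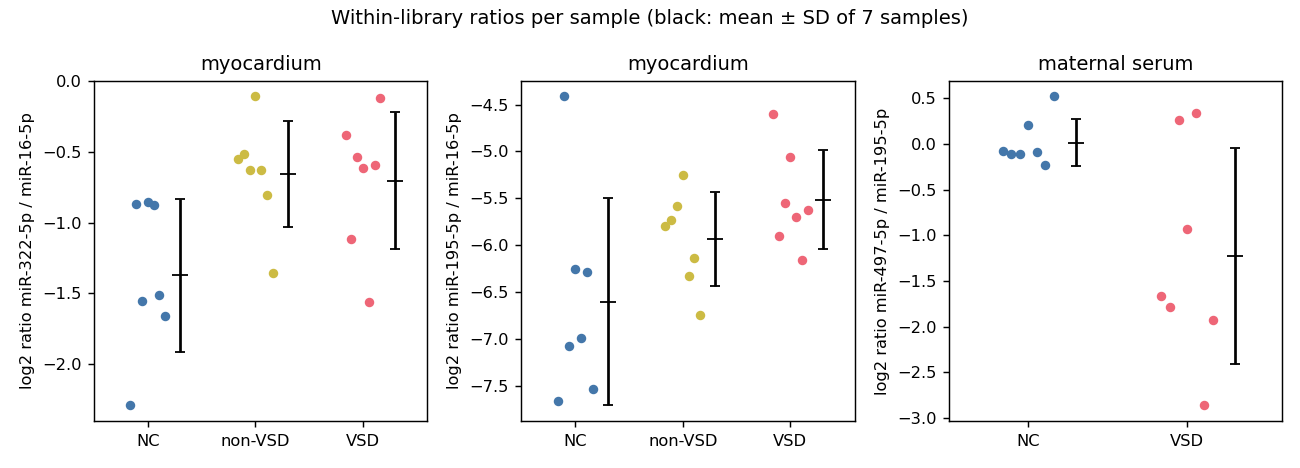
Log2 ratios of 2 members within each library, for miR-322-5p and miR-195-5p over miR-16-5p in myocardium and miR-497-5p over miR-195-5p in serum, with the mean ± SD of 7 samples in black. In 6 of 7 non-VSD samples miR-322-5p over miR-16-5p is above every NC sample, and the VSD serum samples spread from the NC level downwards.

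In amniotic fluid, 3 of the 6 members had enough counts to be tested: miR-16-5p, miR-15b-5p and miR-322-5p. The log2 fold change of miR-322-5p was below 0 in VSD, and those of the 2 others were above 0 with a wider spread. By edgeR, 0 of 3 passed an adjusted p under 0.05 in VSD (1 at an unadjusted p under 0.05; 0 by DESeq2 and by limma), against 0% of 245 tested, and 0 of 3 met the DE-microRNA threshold, against 6.94%. The median log2 fold change was 0.44 over these members and −0.06 over all tested.

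miR-322-5p lay between 960 and 2066 CPM in NC (median 1464), between 474 and 1795 in non-VSD (median 759) and between 414 and 1445 in VSD (median 946). In VSD, 7 of 7 samples were below the NC median and 4 were below every NC sample; in non-VSD, 6 of 7 were below every NC sample. The log2 fold change was −0.80 ± 0.32 in VSD (edgeR adjusted p = 0.251) and −0.69 ± 0.33 in non-VSD (edgeR adjusted p = 0.254). With the red blood cell score in the fit the VSD value was −0.89.

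miR-15b-5p lay between 70.3 and 719 CPM in NC (median 336), between 0 and 1733 in non-VSD (median 173) and between 0 and 2581 in VSD (median 471). The DMO groups spread beyond NC on both sides, with 1 library of each at 0 counts. Its log2 fold change was 1.37 ± 0.74 in VSD (edgeR adjusted p = 0.424) and 0.92 ± 0.79 in non-VSD (edgeR adjusted p = 0.601). On the mean of log2(CPM + 1) by limma it was −0.05 in VSD and −0.64 in non-VSD. Without NC replicate 3 or without VSD replicate 2, miR-15b-5p met the DE-microRNA threshold in VSD, as it did by DESeq2 and without a filter.

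miR-16-5p lay between 36783 and 66114 CPM in NC and between 13266 and 172334 in VSD. In VSD, 2 samples were above and 3 below every NC sample, and the log2 fold change of 0.44 ± 0.46 (edgeR adjusted p = 0.705) carried that spread. By limma it was −0.06. The 4 of 4 red blood cell microRNAs detected summed to 15338 to 36170 CPM of the library in NC, 26321 to 85934 in non-VSD and 18210 to 129517 in VSD. With their score as a covariate, miR-16-5p was −0.76 in VSD (edgeR adjusted p = 0.233) and −0.88 in non-VSD, and miR-15b-5p was −0.24 and −1.04.

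In the non-VSD amniotic fluid, 0 of 3 members passed an adjusted p under 0.05 by edgeR (0 at an unadjusted p under 0.05; 0 by DESeq2 and by limma), against 4.96% of 242 tested, and 0 of 3 met the DE-microRNA threshold, against 12.4%. miR-16-5p was 0.21 ± 0.38 there, and −0.11 by limma. Between VSD and non-VSD amniotic fluid, 0 of 3 passed (0 at an unadjusted p under 0.05 by edgeR; 0 by DESeq2 and by limma), against 0% of 273 tested, and 0 met the DE-microRNA threshold, against 3.3%. There miR-15b-5p was 0.52 ± 0.86, miR-16-5p 0.31 ± 0.49 and miR-322-5p −0.05 ± 0.34.

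miR-195-5p and miR-497-5p were near the limit of detection in amniotic fluid. miR-195-5p had 61 counts over the 7 NC libraries, 15 in non-VSD and 22 in VSD, with 0 counts in 2, 5 and 5 libraries. miR-497-5p had 29, 19 and 10 counts. Both failed the count filter there, so their group differences were not tested by edgeR.

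In maternal serum, the 5 guides were all tested and none stood out. The VSD samples here came from dams given DMO, so exposure and septal defect cannot be told apart. By edgeR, 0 of 5 passed an adjusted p under 0.05 (0 at an unadjusted p under 0.05; 0 by DESeq2 and by limma), against 0% of 219 tested, and 0 met the DE-microRNA threshold, against 4.57%. The median log2 fold change was −0.26 over the members and −0.03 over all tested. miR-16-5p lay between 100484 and 226519 CPM in NC and between 96519 and 187168 in VSD (log2 fold change −0.29 ± 0.23; edgeR adjusted p = 0.631). miR-15b-5p was −0.19 ± 0.27 and miR-322-5p −0.26 ± 0.27.

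miR-195-5p lay between 20.2 and 77.3 CPM in NC and between 31.6 and 78.3 in VSD, a log2 fold change of 0.41 ± 0.31 (edgeR adjusted p = 0.604). miR-497-5p lay between 23.6 and 65.7 CPM in NC (median 40.1) and between 7.03 and 83.0 in VSD (median 20.8), with 4 VSD samples below and 1 above every NC sample, a log2 fold change of −0.47 ± 0.42 (edgeR adjusted p = 0.656). The partners thus had different signs. Their ratio, miR-497-5p per miR-195-5p, had a median of 0.943 in NC (0.852 to 1.43) and 0.314 in VSD (0.137 to 1.26), with 5 of 7 VSD samples below every NC sample. The difference was −1.24 on the log2 scale (exact permutation p = 0.0227, adjusted 0.225). With each library left out in turn, the exact permutation p ranged from 0.00408 to 0.0455. The difference rests on 190 and 244 counts over both groups. In the VSD libraries, miR-497-5p had a median of 5 counts (2 to 30). Those libraries held a median of 300005 counts in all, and the NC libraries 496237.

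**Figure D5:**
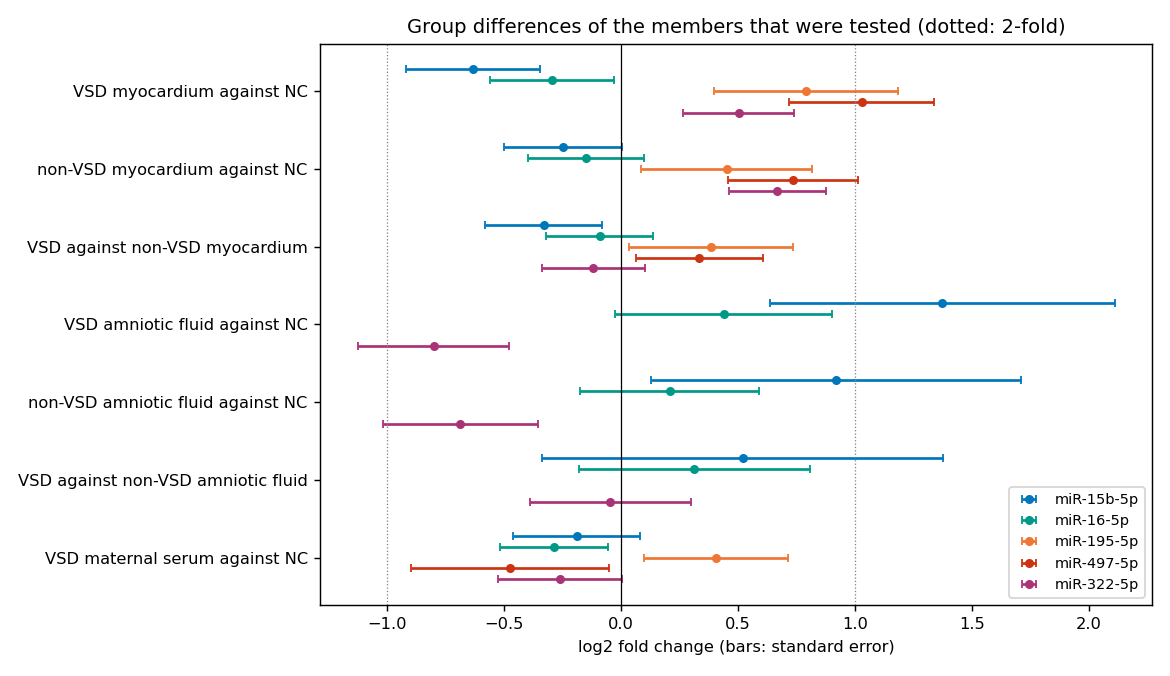
Log2 fold change with its standard error for each member tested in each of the 7 comparisons; dotted lines mark a 2-fold change. In the upper 2 rows, miR-195-5p, miR-497-5p and miR-322-5p lie above 0 and miR-15b-5p and miR-16-5p below it, and in amniotic fluid against NC miR-322-5p lies below 0.

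Whether the VSD against NC change differed between tissues was tested for the 5 guides over 3 pairs of tissues, 15 tests in all, by permuting labels within each tissue. The change of miR-322-5p was 0.50 in myocardium and −0.89 in amniotic fluid on the log2 CPM scale, a difference of 1.39 (permutation p = 0.0015, adjusted p = 0.0136). The change of miR-497-5p was 1.05 in myocardium and −0.69 in serum, a difference of 1.73 (permutation p = 0.00182, adjusted p = 0.0136). Those 2 of 15 passed the adjustment. The serum change of miR-497-5p rests on 63 counts in VSD and 127 in NC, and edgeR gave a log2 fold change of −0.47 there. miR-322-5p between myocardium and serum (difference 0.88, permutation p = 0.0179) and the pairs of miR-195-5p (2.16, permutation p = 0.0193) and miR-497-5p (1.68, permutation p = 0.0166) between myocardium and amniotic fluid each had an adjusted p of 0.0579, the last 2 on few amniotic fluid counts. For miR-15b-5p and miR-16-5p, the adjusted p ranged from 0.628 to 0.944. Collection and library preparation differed between tissues and cannot be told apart from the tissue.

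The other genes of the 3 clusters, their opposite arms and miR-15a, are 16 microRNAs in all. In VSD myocardium, 15 were tested, 0 passed an adjusted p under 0.05 by edgeR, and 1 had an unadjusted p under 0.05 (against 90 of all 469 tested), miR-542-3p of the miR-322 cluster (−0.49 ± 0.20, edgeR adjusted p = 0.197). In non-VSD myocardium, 4 of 15 had an unadjusted p under 0.05 by edgeR, against 80 of all 456 tested. The 4 lie in the miR-322 cluster, as do most of the 15. The log2 fold changes of the abundant arms miR-542-3p (−0.58 ± 0.14) and miR-450a-5p (−0.44 ± 0.14) were below 0, and those of their opposite arms miR-542-5p (0.68 ± 0.19) and miR-450a-3p (0.88 ± 0.24) were above 0, with edgeR adjusted p between 0.0707 and 0.121. miR-542-3p, named after its values were seen, lay between 8997 and 11332 CPM in NC and between 4790 and 8474 in non-VSD. How many of all microRNAs tested had ranges apart in this way was not counted. In non-VSD amniotic fluid, 1 of 9 tested met the DE-microRNA threshold, against 12.4% of all 242 tested. It was miR-351-3p of the same cluster (1.02 ± 0.41, edgeR adjusted p = 0.149).

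The microRNA whose level was most like that of each guide was found by Spearman's rho of log2 CPM. In myocardium, over 21 samples and 483 microRNAs, miR-497-5p was most like its partner miR-195-5p (rho = 0.84), miR-195-5p was most like miR-708-5p (0.87), miR-15b-5p like miR-17-1-3p (0.80), miR-16-5p like miR-18a-3p (0.71) and miR-322-5p like miR-130a-3p (0.71). In serum, over 14 samples and 219 microRNAs, miR-16-5p was most like the red blood cell microRNA miR-451-5p (0.89) and miR-15b-5p like miR-25-3p (0.90), and the highest values of miR-195-5p, miR-497-5p and miR-322-5p were with miR-206-3p (0.58), miR-322-5p (0.71) and miR-30c-5p (0.76). In amniotic fluid, over 21 samples and 273 microRNAs, miR-16-5p was most like miR-126a-5p (0.84), an endothelial microRNA, and miR-15b-5p like the white blood cell microRNA miR-142-5p (0.74), and miR-322-5p like miR-194-5p (0.69). miR-195-5p and miR-497-5p were too rare there for this. Samples of all groups enter these values, and they share library depth.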

How the data were processed

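The authors deposited raw read counts for each mature microRNA and sample, obtained after base calling with bcl2fastq 2.19 (named in the submitters' processing notes) and quality filtering with the FASTX-Toolkit. The aligner, the microRNA annotation and any use of molecular identifiers in the amniotic fluid kit are not given in the sources used here. The tables also hold 74 columns of normalized values and group means, and the authors' own comparisons (fold changes and p-values), none of which were used. The NC columns stand in both tables of a tissue and were counted once.

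The members and the lists of cluster genes and cell markers were chosen with earlier results of these data known. The rule named the 6 members in every tissue, tested or not, the other genes of their clusters as counts with values for those that passed a call or stood near a member, and the microRNA most like each guide in a tissue, found here for guides that passed the filter. Cluster genes that reached only an unadjusted p under 0.05 were named after their values were seen. Counts were tested in R 4.3.3 with edgeR 4.0.16: filterByExpr (minimum count 10, minimum total 15), TMM scaling and the quasi-likelihood test, with Benjamini-Hochberg adjustment over all microRNAs tested in a comparison. Each DMO group was fitted with NC, and VSD against non-VSD with all 3 groups. CPM are TMM-scaled unless called CPM of the library, and log2 CPM use a prior count of 2. Ratios used a pseudocount of 0.5 and exact two-sided permutation over 3432 groupings. Correlations and differences between tissues used 100000 permutations. Ratios of the 2 arms of a hairpin were added after the values had been seen. The procedures were tested on simulated data with known changes. Where many abundant microRNAs changed in random directions, edgeR with TMM called some unchanged microRNAs, and their median log2 fold change shifted from 0. A simulation with equal numbers up and down was added afterwards. The alternatives were other tools (DESeq2 1.42.0 and limma 3.58.1, the latter on log2(CPM + 1)), library size in place of TMM, other filters, other sets of groups in the fit, a block for the replicate number, a score of red blood cell microRNAs in the fit and each sample left out. Python 3.11.15 with scipy 1.17.1 and matplotlib 3.10.9 was used for the remaining statistics and figures.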

Additional observations from a re-analysis of the deposited data

Results flagged for a closer look

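Of 33 groups of 7 samples of a member with a mean of at least 10 counts, 2 held a sample that stood apart from the others; chance gives about 1 in 20. miR-195-5p was highest in NC myocardium replicate 2, at 69.7 CPM. miR-15b-5p was lowest in VSD amniotic fluid replicate 2, at 0 CPM.

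The VSD against NC change differed between tissues at an unadjusted permutation p under 0.05 in 5 of 15 tests. On the log2 scale, the difference between myocardium and amniotic fluid was 2.16 for miR-195-5p, 1.68 for miR-497-5p and 1.39 for miR-322-5p. Between myocardium and maternal serum it was 1.73 for miR-497-5p and 0.88 for miR-322-5p.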

How the results depend on the processing

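Counts of members past a threshold changed with the processing in the myocardium, and the causes were not tested. In VSD myocardium, the members under an adjusted p of 0.05 rose from 0 to 2 with library size only, and to 1 with DESeq2, with at least 10 counts in every sample and with all 3 groups in 1 fit. With NC replicate 2 and VSD replicate 1 both left out, an alternative added once the values were known, 2 members passed each of the 2 thresholds there. The members at the DE-microRNA threshold there went from 1 to 2 with no filter, and to 0 with limma and with the red blood cell score. In non-VSD myocardium, 1 member passed an adjusted p of 0.05 with library size only and 1 with DESeq2. At the DE-microRNA threshold, 1 member was called in VSD amniotic fluid with DESeq2 and 1 with no filter, and 1 in non-VSD amniotic fluid with the red blood cell score. With library size only, 5 tissue differences and 7 pairs with a Pearson r passed an adjusted p of 0.05.

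Log2 fold changes that changed sign were small in most cases. With library size only, miR-16-5p was 0.15 in VSD, 0.084 in non-VSD and 0.064 in VSD against non-VSD myocardium, where miR-322-5p was 0.0375. With the red blood cell score, miR-15b-5p and miR-16-5p were 0.046 and 0.30 in VSD myocardium, 0.14 and 0.26 in non-VSD myocardium, −0.24 and −0.76 in VSD amniotic fluid, and −1.04 and −0.88 in non-VSD amniotic fluid. With that score miR-15b-5p was 0.10 in serum and miR-322-5p 0.11 in VSD against non-VSD amniotic fluid. By limma, miR-15b-5p and miR-16-5p were −0.048 and −0.061 in VSD and −0.64 and −0.11 in non-VSD amniotic fluid. Of the tissue differences, with library size only that of miR-15b-5p between myocardium and serum was 0.00758 and that of miR-16-5p between myocardium and amniotic fluid 0.383, and with a prior count of 0.5 that of miR-497-5p between amniotic fluid and serum was −0.303.

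The replicate numbers did not pair the samples: same-numbered samples had correlations of −0.62 to 0.47, and at most 1 of 7 correlated best with its own number. With the replicate block, miR-497-5p was 1.07 in VSD myocardium (edgeR adjusted p = 0.291) and the number of members called was the same in all 7 comparisons. With the replicate block, miR-16-5p was −0.058 in VSD amniotic fluid, miR-15b-5p −0.069 and miR-16-5p −0.10 in non-VSD amniotic fluid, and miR-322-5p 0.021 in VSD against non-VSD amniotic fluid.

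Leaving out 1 library at a time gave 0 to 2 members under an adjusted p of 0.05 in VSD and in non-VSD myocardium, with 2 only without NC replicate 2. At the DE-microRNA threshold it gave 0 to 2 in VSD myocardium (0 without NC replicates 1, 4, 5, 6 or 7 or VSD replicates 1, 4 or 5), 0 to 1 in non-VSD myocardium and 0 to 1 in VSD amniotic fluid. Some log2 fold changes then crossed 0: miR-16-5p ranged from −0.29 to 0.043 in non-VSD myocardium, from −0.089 to 0.39 in non-VSD amniotic fluid and from −0.038 to 0.56 in VSD against non-VSD amniotic fluid, where miR-15b-5p ranged from −0.0475 to 1.04 and miR-322-5p from −0.23 to 0.24. Log2 ratios that crossed 0 were, in VSD against non-VSD myocardium, miR-497-5p to miR-195-5p (−0.15 to 0.027) and miR-322-5p to miR-16-5p (−0.16 to 0.10). In non-VSD amniotic fluid, miR-15b-5p to miR-16-5p ranged from −0.52 to 0.56. In VSD against non-VSD amniotic fluid, miR-15b-5p to miR-16-5p ranged from −0.20 to 1.21, miR-497-5p to miR-195-5p from −1.20 to 0.35, miR-195-5p to miR-16-5p from −0.44 to 0.57 and miR-322-5p to miR-16-5p from −0.46 to 0.28. In serum, miR-322-5p to miR-16-5p ranged from −0.23 to 0.063. In the fluids, depth limits what can be seen of miR-195-5p and miR-497-5p.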

Other observations

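The 2 arms of a hairpin come from 1 precursor, and their ratio within a library needs no scaling. In myocardium, the 5p arm of miR-195 was the lesser arm in NC, with a median of 0.501 miR-195-5p counts per miR-195-3p count (0.329 to 1.36), and the greater one in VSD, with 1.36 (0.789 to 2.33). The non-VSD median was 1.07 (0.703 to 1.80). On the log2 scale the ratio was higher by 1.20 in VSD (exact two-sided permutation p = 0.00641) and by 0.90 in non-VSD (exact permutation p = 0.0152), with 7 of 7 samples of each group above the NC median. For miR-322, the median was 0.559 in NC (0.376 to 1.20), 0.914 in non-VSD and 0.923 in VSD. That ratio was higher by 0.63 in VSD (exact permutation p = 0.0227) and by 0.62 in non-VSD (exact permutation p = 0.0221), again with 7 of 7 above the NC median. These 4 differences each had an adjusted p of 0.102 over 18 arm ratio tests, and the NC samples serve for both groups. With each library left out in turn, the unadjusted exact permutation p ranged from 0.00117 to 0.0478 over the 4 differences.

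The arms of miR-15b and miR-16 gave other values. miR-15b-5p per miR-15b-3p had medians of 2.74 in NC, 2.76 in non-VSD and 2.75 in VSD myocardium (difference in VSD −0.16, exact permutation p = 0.599). miR-16-5p per miR-16-3p had medians of 163, 171 and 161 (difference in VSD −0.26, exact permutation p = 0.267). In serum, miR-322-5p exceeded miR-322-3p with a median ratio of 4.30 (2.74 to 8.41), above the myocardium range of 0.376 to 1.35.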
